A study of Homo sapiens with 16 samples.

Results

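AHCY knockdown under active RAS was compared with non-senescent cells across all genes, in 12 of the 16 RNA-seq libraries of the series, chosen by their labels. The cells were IMR90 ER:RAS, a line of human lung fibroblasts carrying RAS fused to an estrogen receptor domain, which 4-hydroxytamoxifen (4OHT) switches on. The 8 hairpin libraries, 4 with the hairpin shAHCY_2 and 4 with shAHCY_4, came from cells treated with 4OHT at 100 nM. The 4 EV libraries are labelled non-senescent, without 4OHT, and all 12 were labelled day 6 and passage 15. A further 4 libraries, EV_4OHT, without a hairpin, serve as a reference. They are labelled senescent, with 4OHT at 100 nM, day 6 and passage 15. The difference of EV_4OHT from EV is called the RAS change here, and it includes any effect of 4OHT itself. Hairpin and EV libraries differ in 4OHT, in RAS activation and in the hairpin, and no hairpin group without 4OHT was analysed here, so these cannot be told apart. All groups are derivatives of the same cell line. Separate cultures for the replicates of a group are not stated in the labels, and the p-values here cover only the spread between libraries, which may be technical.

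Senescence is a lasting arrest of the cell cycle. Oncogenic RAS brings it about in fibroblasts through the ERK pathway, with CDK inhibitors, loss of lamin B1 and a secretory programme (the senescence-associated secretory phenotype, SASP) of interleukins, chemokines and proteases. AHCY, adenosylhomocysteinase, hydrolyses S-adenosylhomocysteine, the product and inhibitor of methylation by S-adenosylmethionine, to adenosine and homocysteine.

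Gene counts totalled 8236199 to 18235787 per library, and levels are given as CPM, counts scaled to a common library size and adjusted for composition. Differences are log2 fold changes with their standard errors from edgeR's quasi-likelihood test over 13526 genes, and a gene is called where its Benjamini-Hochberg adjusted p is under 0.05. On the leading axis of a multidimensional scaling, which held 59.2% of the variance, EV libraries lay at -2.29 to -2.16, hairpin libraries at 0.518 to 0.707 and EV_4OHT libraries at 1.02 to 1.05. The library shAHCY_2 replicate 59 stood apart. Its gene deviations from the mean of all 16 libraries followed GC content (Spearman rho -0.535 across genes). EV replicate 51 deviated in the same direction less strongly (rho -0.266). Deviations of shAHCY_4 replicates 62 and 63 ran the opposite way (rho 0.281 and 0.227). Without shAHCY_2 replicate 59 and EV replicate 51 the counts of genes called against EV were 3697 higher and 3864 lower. Marker sums are CPM on library totals alone. Of the 12 fibroblast markers all were tested, with a summed level of 11300 to 12900 CPM in EV and 4940 to 5630 CPM in the hairpin libraries. The 10 epithelial markers summed to 108 to 130 CPM in EV and 46 to 62.7 CPM in the hairpin libraries. KRT14, SFTPC and SCGB1A1 were at 0 in all libraries. Most of the hairpin sum was KRT18, with means of 35.5 CPM in EV, 45.5 CPM with shAHCY_2 and 42.9 CPM with shAHCY_4. The lower sum lay mostly in KRT19, with means of 53 CPM in EV, 1.23 CPM with shAHCY_2 and 1.92 CPM with shAHCY_4. The 8 endothelial markers summed to 6.59 to 8.03 CPM in EV and 2.84 to 5.54 CPM in hairpin libraries, most of it TEK, with PECAM1 and CDH5 at 0 in all libraries. The 9 haematopoietic markers summed to 0.914 to 1.14 CPM in EV, 1.79 to 4.08 CPM in hairpin libraries and 1.94 to 3.21 CPM in EV_4OHT, most of it CSF1R, with CD3E and ITGAM at 0. The 5 neural markers summed to 13.4 to 19.5 CPM in EV and 11.7 to 17.1 CPM in hairpin libraries, most of it TUBB3, with SOX10 at 0.

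AHCY (ENSG00000101444), the target of both hairpins, stood at 124, 106, 102 and 123 CPM in EV. The shAHCY_2 libraries held 20.1, 19, 12.1 and 22.8 CPM, and the shAHCY_4 libraries 13.4, 14, 18 and 13.5 CPM. Every hairpin library was below every EV library. AHCY RNA was left at 14.6% of its EV level, a log2 fold change of -2.78 ± 0.11 (adjusted p = 1.2e-15). EV_4OHT libraries held 154 to 173 CPM, a log2 difference from EV of 0.53 ± 0.12. RNA levels say nothing of the AHCY protein.

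With AHCY reduced, RAS-activated cells remained far from non-senescent cells: 7461 genes (55.2% of those tested) were called, 3682 higher (27.2%) and 3779 lower (27.9%) in hairpin libraries than in EV. At least 2-fold, 831 were higher (6.14%) and 1212 lower (8.96%). Counts called against EV in each gene list below are to be read against the 27.2% and 27.9% of all tested genes. For 2156 genes (15.9%) all 8 hairpin libraries lay above all 4 EV libraries, and for 2120 (15.7%) all lay below. In EV_4OHT against EV, which shares the EV libraries, 3613 genes were higher (26.7%) and 3626 lower (26.8%). Set directly against EV_4OHT, the hairpin libraries were higher for 909 genes (6.72%) and lower for 880 (6.51%). Counts called against EV_4OHT in each gene list below are to be read against these 2 shares. All 8 hairpin libraries lay above all EV_4OHT libraries for 4.37% of genes and below all for 4.26%. The count of higher genes in that contrast was 592 without EV_4OHT replicate 56 and 1387 without shAHCY_2 replicate 59 and EV replicate 51. Of the genes called there 50.8% were higher, and 67.7% with library totals alone as scaling; in EV_4OHT against EV these shares were 49.9% and 38.2%. Alone, shAHCY_2 differed from EV in 6502 genes (48.1%) and shAHCY_4 in 6925 (51.2%), while the hairpins differed from each other in 168 (1.24%), 95 higher and 73 lower with shAHCY_2. With each library left out in turn these became 38 to 71 and 28 to 85, and DESeq2 called 243 and 259.

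**Figure D1:**
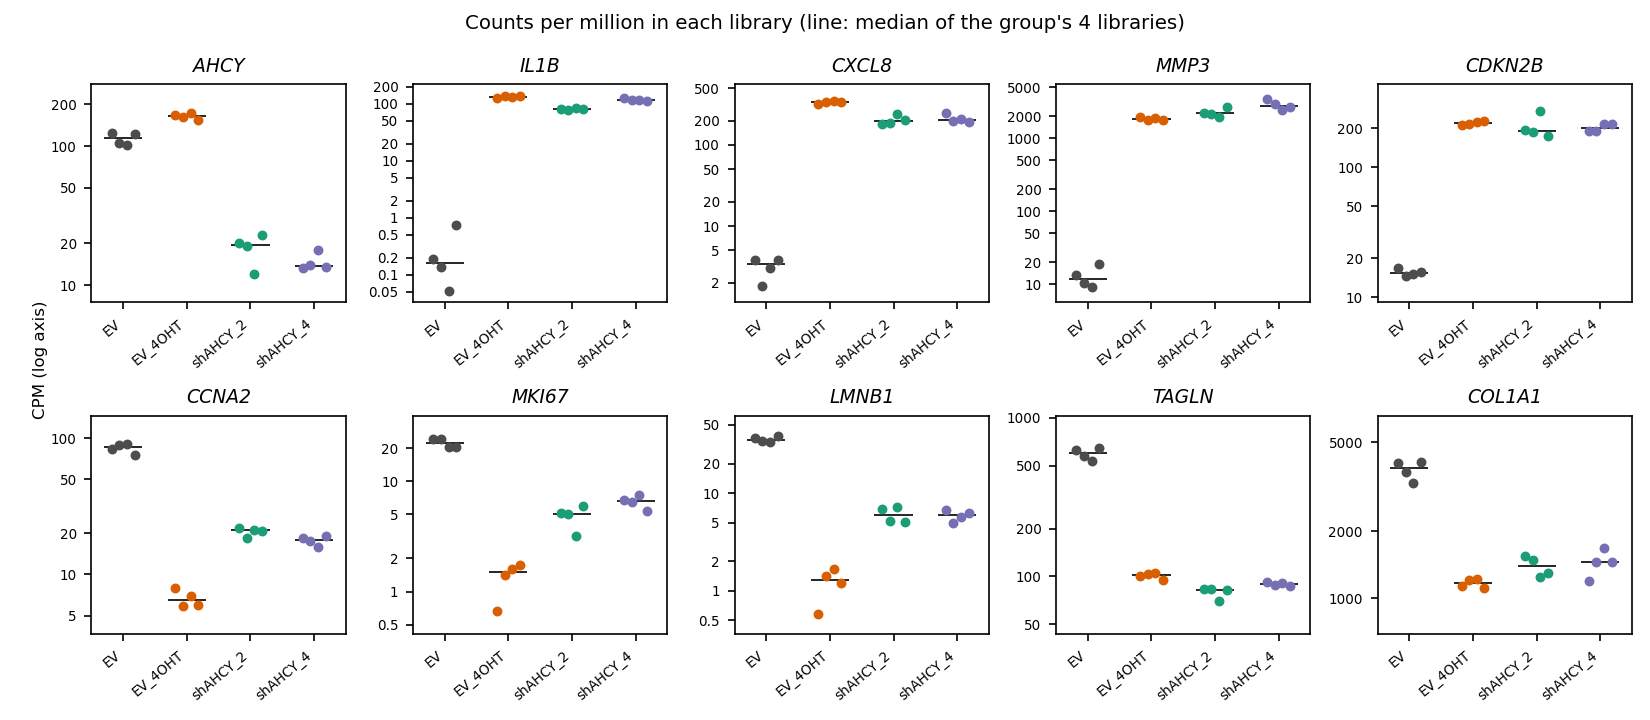
CPM on a log axis in each of the 16 libraries for 10 genes, by group, with a line at each group's median. AHCY is low in both hairpin groups (12.1 to 22.8 CPM), IL1B, CXCL8, MMP3 and CDKN2B are high in all 12 libraries with 4OHT, and CCNA2, MKI67 and LMNB1 lie between EV and EV_4OHT in the hairpin libraries.

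RNA of most listed target and feedback genes of the RAS-ERK pathway was higher in knockdown cells than in EV. Of 26 tested target and feedback genes, 20 were higher and 1 lower than in EV, against 27.2% and 27.9% of all genes, with a median log2 fold change of 0.83 against -0.02 over all genes. DUSP6, the phosphatase that inactivates ERK and is induced by it, stood at 122, 114, 120 and 118 CPM in EV and at 747 to 976 CPM with a median of 781 in the hairpin libraries. All 8 lay far above EV, and their range overlapped that of EV_4OHT (723 to 776 CPM). DUSP6 was 6.74-fold higher than in EV (log2 2.75 ± 0.07, adjusted p = 1.3e-18). SPHK1, a sphingosine kinase, was 7.26-fold higher (log2 2.86 ± 0.13), and SPRED2, a membrane inhibitor of RAS signalling, 2.94-fold higher (log2 1.56 ± 0.06). IER3, an immediate early gene, stood at 31, 34.9, 28.4 and 36.1 CPM in EV and 91.3 to 109 CPM with a median of 103 in the hairpin libraries, all above EV and all below EV_4OHT (133 to 146 CPM). Its log2 difference was 1.64 ± 0.08 from EV and -0.47 ± 0.07 from EV_4OHT (adjusted p = 4.5e-05). The growth factor gene EREG, an EGF receptor ligand, was also higher than in EV (log2 2.44 ± 0.12) and lower than in EV_4OHT (-0.82 ± 0.10). FOSL1, an AP-1 subunit, was the gene called lower (log2 -0.63 ± 0.08), named after its value was seen. Against EV_4OHT, 7 of the 26 were lower, and 4 without EV_4OHT replicate 55.

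CDK inhibitors block the kinases that drive the cell cycle. Of 6 inhibitor genes tested, 4 were higher and 2 lower than in EV. CDKN2B, which encodes p15, stood at 16.8, 14.7, 15.2 and 15.6 CPM in EV and at 173 to 270 CPM with a median of 192 in the hairpin libraries. All 8 lay far above EV and overlapped EV_4OHT (212 to 225 CPM). The difference from EV was 13.1-fold (log2 3.71 ± 0.11, adjusted p = 1.6e-17), and that from EV_4OHT was -0.11 ± 0.09 (adjusted p = 0.48), or -0.19 (adjusted p = 0.03) without shAHCY_2 replicate 59. CDKN1A, which encodes p21, stood at 1100, 997, 885 and 1100 CPM in EV and at 2140 to 3130 CPM with a median of 2600 in the hairpin libraries. Every hairpin library exceeded every EV library, with a log2 fold change of 1.39 ± 0.07 beside 1.36 ± 0.08 in EV_4OHT. CDKN2A, which encodes p16 and ARF, stood at 30.9, 30, 30.1 and 32.3 CPM in EV and at 47 to 64.4 CPM with a median of 56.7 in the hairpin libraries. These values fell between the groups, above all EV and below all EV_4OHT libraries (65 to 76 CPM). CDKN2A differed from EV by 0.88 ± 0.08 in log2 and from EV_4OHT (-0.34 ± 0.07, adjusted p = 0.0035). CDKN1B, which encodes p27, was lower than in EV, at 2.15 to 4.15 CPM with a median of 2.81 against 10.5, 6.83, 10.5 and 9.78 CPM (log2 -1.69 ± 0.17).

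Among 22 p53 target genes, 11 were higher and 1 was lower (2 without EV replicate 49, EV replicate 52 or shAHCY_2 replicate 59), with a median of 0.25, beside 8 higher and 2 lower in EV_4OHT. GDF15, a secreted stress cytokine, stood at 49.5, 40.3, 40.5 and 54 CPM in EV and at 602 to 902 CPM with a median of 751 in the hairpin libraries. The hairpin libraries lay above all EV libraries and spanned the EV_4OHT range (721 to 738 CPM), and the increase over EV was 16.4-fold (log2 4.04 ± 0.09, adjusted p = 9.9e-20). PLK3, a stress-responsive kinase, was higher by 1.75 ± 0.08 in log2, SESN2, a sestrin that restrains mTORC1, by 0.65 ± 0.09 and TNFRSF10B, a TRAIL death receptor, by 0.50 ± 0.08.

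Several interleukin and chemokine genes were far above EV. Of 15 tested IL1 pathway and cytokine genes (17 listed), 8 passed the low-count filter only through libraries with 4OHT, so that a count of them above EV says nothing. Of the 7 that reached the filter's minimum in EV, 2 were higher and 1 lower. Against EV_4OHT, 7 of the 15 were lower. IL1B, interleukin 1 beta, stood at 0.187, 0.137, 0.0529 and 0.738 CPM in EV and at 79 to 124 CPM with a median of 98.2 in the hairpin libraries. The groups did not overlap, and IL1B had the largest increase of the genes with a mean level of at least 3 in log2 CPM (log2 8.43 ± 0.20). IL1B was among the 8 genes that passed the filter only through libraries with 4OHT, so this difference is given as a description. Its value in EV_4OHT against EV was log2 8.86 ± 0.21, and hairpins and EV_4OHT differed by -0.43 ± 0.10 (adjusted p = 0.0036), a call lost when the 8 hairpin libraries were fitted as 1 group (adjusted p = 0.054). IL1A, interleukin 1 alpha, the membrane-bound initiator of the secretory programme, stood at 0, 0, 0.0529 and 0.246 CPM in EV and at 6.08 to 10.1 CPM with a median of 8.36 in the hairpin libraries. All hairpin libraries were above EV and below EV_4OHT (10.7 to 15.4 CPM). TNFSF15, a TNF family cytokine, stood at 0.0622, 0.0683, 0.159 and 0.492 CPM in EV and at 16.1 to 40 CPM with a median of 22.1 in the hairpin libraries. Its hairpin values overlapped those of EV_4OHT (32.8 to 50.9 CPM) and differed from EV by 6.80 ± 0.35 in log2. CSF3, the granulocyte growth factor G-CSF, had 0 counts in EV and 1196 in the hairpin libraries at 9.53 to 17.2 CPM with a median of 12, at least 266-fold higher taking 3 counts over all EV libraries as the floor. CSF1, the macrophage growth factor, was the member called lower (log2 -0.76 ± 0.15), beside a further member without shAHCY_4 replicate 61 or replicate 64, named after its value was seen.

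IL6, an interleukin widely used as a mark of this secretory programme, was not called against EV. It stood at 1.68, 1.30, 2.01 and 1.78 CPM in EV, 1.04 to 3.52 CPM with a median of 2.53 in the hairpin libraries and 4.16 to 7.57 CPM in EV_4OHT. Hairpin and EV values overlapped, while every hairpin library was below every EV_4OHT library. The difference from EV was log2 0.41 ± 0.24 (adjusted p = 0.15, 95% interval -0.05 to 0.88), and that from EV_4OHT was -1.47 ± 0.21 (adjusted p = 3.2e-05).

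Of 12 tested chemokine genes (19 listed), 8 passed the filter only through libraries with 4OHT. Of the 4 that reached its minimum in EV, 2 were higher than in EV and 2 lower. Against EV_4OHT, 9 of the 12 were lower and 1, CXCL12, was higher, a call lost with limma-voom (adjusted p = 0.097) and without EV_4OHT replicate 53, EV_4OHT replicate 55 or shAHCY_4 replicate 62. CXCL8, interleukin 8, which draws neutrophils, stood at 3.86, 1.84, 3.07 and 3.81 CPM in EV and at 179 to 247 CPM with a median of 199 in the hairpin libraries. The 8 libraries lay above all EV and below all EV_4OHT libraries (320 to 348 CPM). CXCL8 was 65.3-fold above EV (log2 6.03 ± 0.15, adjusted p = 4.3e-19) and differed from EV_4OHT (-0.70 ± 0.09, adjusted p = 1.8e-05). CXCL3, a ligand of the same receptor, CXCR2, stood at 0.124, 0.0683, 0.634 and 0.184 CPM in EV and at 24.2 to 34.6 CPM with a median of 28.2 in the hairpin libraries. It showed the same order of groups, with log2 differences of 6.65 ± 0.24 from EV and -0.61 ± 0.12 from EV_4OHT. CXCL1, a further CXCR2 ligand, was higher than EV by 4.14 ± 0.24 in log2 and lower than EV_4OHT (-0.72 ± 0.15), with ranges that touched those of EV_4OHT. CXCL1, CXCL2 and CXCL3 are close in sequence, so counts may be shared between them. CXCL12, a homeostatic chemokine of stromal cells, stood at 29.4, 23.1, 20.3 and 24.3 CPM in EV and at 1.76 to 5.60 CPM with a median of 3 in the hairpin libraries. It was below EV in every hairpin library (log2 -2.96 ± 0.17).

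RefSeq promoter windows (GRCh38.p14, 250 bases before to 50 after the start site, both strands searched) were scanned for 3 textbook motifs chosen with the values known. The NF-kB letters GGANTTTCC were found in 7 of 11 chemokine windows, 1 of 12 IL1 pathway and cytokine windows and 0 of 9 protease and inhibitor windows, beside 1.61% of windows of tested genes and 1.64% of all. The AP-1 letters TGANTCA were found in 3 of 9 windows of protease and inhibitor genes, 4 of 12 of IL1 pathway and cytokine genes and 2 of 11 of chemokine genes, beside 4.87% for tested genes and 7.76% for all. Only tested members of each list were scanned. Of these, 8 of 12 chemokine genes and 8 of 15 IL1 pathway and cytokine genes had passed the filter only through libraries with 4OHT. A match describes the letters only. The 100 bases before the start of 3 chemokine genes and of MMP10 are shown, since their values are given here, with the NF-kB letters (CXCL1, CXCL3, CXCL8) or AP-1 letters (MMP10) in capitals. They lie at chr4:73869293-73869392 (plus strand), chr4:74038690-74038789 (minus strand), chr4:73740469-73740568 (plus strand) and chr11:102780629-102780728 (minus strand) of GRCh38.p14, which is not the build of the counts.
CXCL1: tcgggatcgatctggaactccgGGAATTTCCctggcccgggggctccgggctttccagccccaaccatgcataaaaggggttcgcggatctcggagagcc
CXCL3: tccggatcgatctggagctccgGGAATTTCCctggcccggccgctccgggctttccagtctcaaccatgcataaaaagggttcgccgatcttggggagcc
CXCL8: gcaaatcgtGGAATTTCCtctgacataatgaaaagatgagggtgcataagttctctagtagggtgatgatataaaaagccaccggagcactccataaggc
MMP10: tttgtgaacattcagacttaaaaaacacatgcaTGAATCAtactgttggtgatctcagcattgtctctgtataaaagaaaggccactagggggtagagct

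Genes of matrix-degrading proteases were high under knockdown. Of 19 protease and inhibitor genes, 14 were higher and 3 lower than in EV, with a median log2 fold change of 1.26 (1.49 in EV_4OHT). MMP3, stromelysin 1, stood at 13.5, 10.4, 9.15 and 19 CPM in EV and at 1930 to 3390 CPM with a median of 2540 in the hairpin libraries. All exceeded EV and overlapped EV_4OHT (1760 to 1970 CPM). The increase over EV was 194-fold (log2 7.60 ± 0.18, adjusted p = 3.2e-19) and the difference from EV_4OHT 0.45 ± 0.12 (adjusted p = 0.014), which was not called without EV_4OHT replicate 54 or replicate 56 (adjusted p = 0.054 and 0.054). MMP1, interstitial collagenase, stood at 672, 593, 588 and 610 CPM in EV and at 8930 to 10500 CPM with a median of 9220 in the hairpin libraries. Here every hairpin library was above EV_4OHT as well (7390 to 8040 CPM). MMP1 differed from EV by 3.93 ± 0.06 in log2 and from EV_4OHT by 0.30 ± 0.05 (adjusted p = 0.00041). MMP10, stromelysin 2, was at 0.124, 0.205, 0.211 and 0.246 CPM in EV and 25.2 to 49.2 CPM with a median of 35 in the hairpin libraries (log2 7.35 ± 0.19). TIMP1, an inhibitor of these enzymes, stood at 1840, 1850, 1640 and 2030 CPM in EV and at 9110 to 11000 CPM with a median of 10300 in the hairpin libraries. Its libraries lay above EV and just below EV_4OHT (11100 to 12600 CPM), with log2 differences of 2.46 ± 0.06 and -0.21 ± 0.05. The second of these was not called without EV_4OHT replicate 54 (adjusted p = 0.064). MMP10 was also higher than in EV_4OHT (log2 0.37 ± 0.10, adjusted p = 0.013), a call lost without EV_4OHT replicate 56 (adjusted p = 0.057) and with the hairpin libraries as 1 group (adjusted p = 0.076). The cathepsins CTSB (log2 -0.23 ± 0.06) and CTSL (log2 -0.29 ± 0.07) were lower than in EV_4OHT, while both were higher than in EV. For CTSB the call against EV_4OHT was lost with library totals alone (adjusted p = 0.051).

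**Figure D2:**
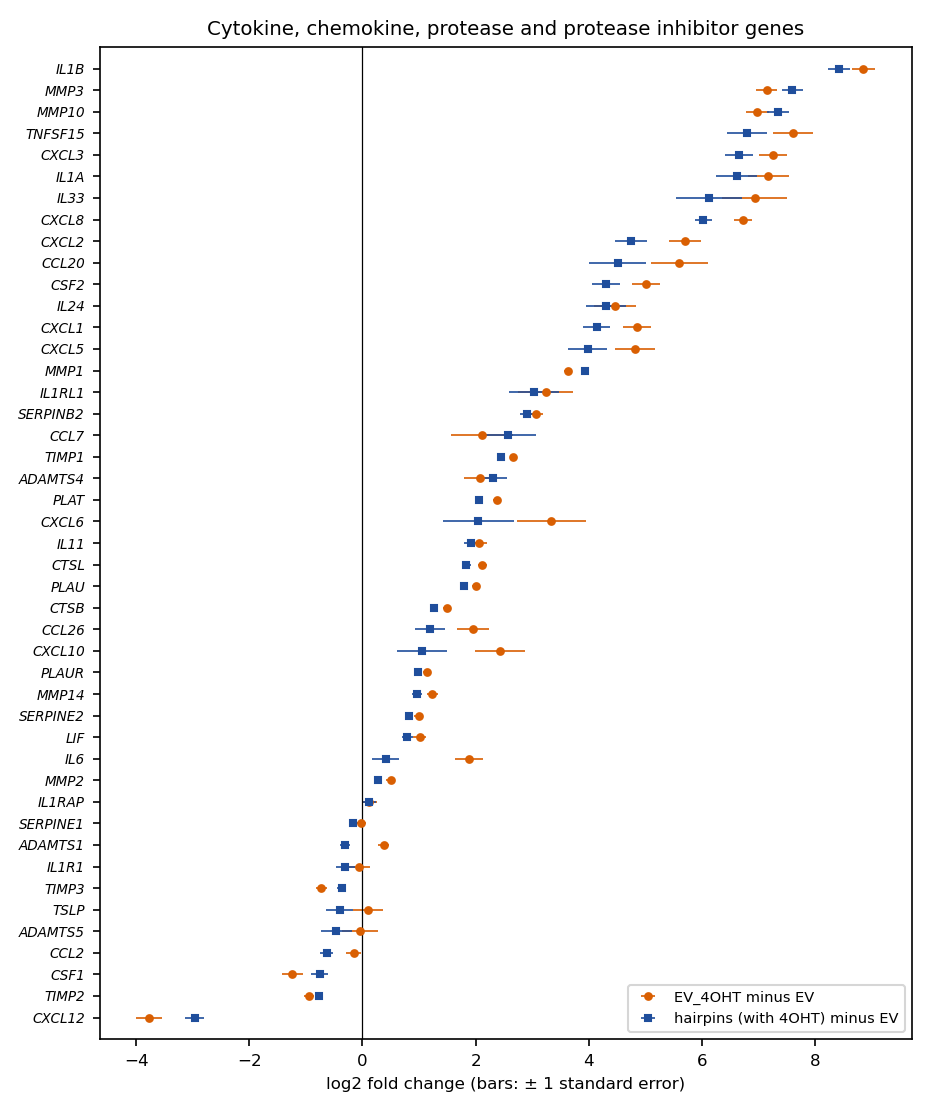
Log2 fold changes (points, with bars of 1 standard error) of the tested cytokine, chemokine, protease and inhibitor genes in hairpins against EV (squares) and EV_4OHT against EV (circles), which share the EV libraries. CSF3, with 0 counts in EV, is left out. Chemokine squares lie mostly left of their circles, MMP1, MMP3 and MMP10 squares lie right of them, and IL6 is near 0 in hairpins against EV.

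Growth factor and binding protein genes went both ways, 10 higher and 9 lower of 23. Of these, 3 passed the filter only through libraries with 4OHT. Of the 20 that reached its minimum in EV, 8 were higher and 9 lower, against 27.2% and 27.9% of all tested genes. STC1, stanniocalcin 1, a secreted glycoprotein, stood at 228, 199, 205 and 221 CPM in EV and at 4080 to 4480 CPM with a median of 4180 in the hairpin libraries. All 8 exceeded both EV and EV_4OHT (3400 to 3790 CPM). Its log2 difference was 4.31 ± 0.06 from EV (adjusted p = 4.7e-23) and 0.25 ± 0.05 from EV_4OHT (adjusted p = 0.0014). BMP2, a bone morphogenetic protein, was 57.9-fold above EV (log2 5.85 ± 0.18) at 41.9 to 64 CPM with a median of 54.5, overlapping EV_4OHT. ANGPTL4, an inhibitor of lipoprotein lipase, was higher by 3.59 ± 0.12 in log2, and INHBA, the activin A subunit, by 1.75 ± 0.07. STC2, the paralog stanniocalcin 2, stood at 686, 623, 564 and 660 CPM in EV and at 207 to 278 CPM with a median of 252 in the hairpin libraries. It was below EV in all libraries and below EV_4OHT (367 to 391 CPM) in all, with differences of log2 -1.33 ± 0.06 and -0.58 ± 0.07. The IGF binding proteins IGFBP2, IGFBP3, IGFBP4, IGFBP6 and IGFBP7 were lower than in EV by log2 differences from -2.03 (IGFBP3) to -0.89 (IGFBP4), and GREM1, a BMP antagonist, was lower too (-1.44 ± 0.06).

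The genes of NF-kB, C/EBP and AP-1 factors split, with 11 of 23 higher and 7 lower than in EV. FOS, the inducible AP-1 subunit, was at 2.24, 1.37, 1.53 and 1.78 CPM in EV and 7.37 to 11.7 CPM with a median of 11 in hairpin libraries, with no overlap (log2 2.59 ± 0.18). JUNB was higher by 1.29 ± 0.10 in log2 and NFKBIZ, a nuclear NF-kB cofactor, by 1.11 ± 0.11, while FOSL2 was lower (-1.57 ± 0.10). CEBPB, the C/EBP factor of the secretory programme, was above EV (0.68 ± 0.16) and below EV_4OHT (-0.65 ± 0.14, adjusted p = 0.0041).

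Most listed cell-cycle genes were below EV and above EV_4OHT. All 56 tested mitosis and G2/M genes were lower in hairpin libraries than in EV, against 27.9% of all tested genes, with a median log2 fold change of -1.70, beside 56 lower and a median of -3.35 in EV_4OHT. In the direct contrast with EV_4OHT, 51 of 56 were higher and 0 lower (median 1.51), beside 6.72% and 6.51% of all tested genes. CCNA2, cyclin A2, needed for S phase and entry into mitosis, stood at 82.6, 88.9, 90.8 and 74.7 CPM in EV and at 15.8 to 21.9 CPM with a median of 18.8 in the hairpin libraries. The 3 groups were separate, with EV_4OHT at 5.89 to 7.98 CPM. CCNA2 was left at 22.7% of EV (log2 -2.14 ± 0.08, adjusted p = 1.4e-15) and was higher than EV_4OHT by 1.51 ± 0.11 (adjusted p = 1.2e-09). MKI67, the proliferation marker Ki-67, stood at 24.4, 24.4, 20.4 and 20.3 CPM in EV and at 3.22 to 7.47 CPM with a median of 5.68 in the hairpin libraries. Again no ranges overlapped, EV_4OHT holding 0.665 to 1.73 CPM. The log2 difference of MKI67 was -1.98 ± 0.14 from EV and 2.03 ± 0.21 from EV_4OHT. TOP2A, the topoisomerase that disentangles chromosomes, stood at 188, 208, 238 and 170 CPM in EV and at 41.1 to 61.2 CPM with a median of 47.6 in the hairpin libraries. It too lay between EV and EV_4OHT (14.5 to 17.3 CPM). ANLN, an anillin of the cleavage furrow, was at 25.4% of EV and BIRC5, survivin, at 30%, and both had all hairpin libraries between the EV groups. In bulk RNA, fewer cycling cells and less RNA per cycling cell cannot be told apart.

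The members were not equal in this. CDC25B, a phosphatase that activates CDK1, had nearly equal values in both comparisons with EV (log2 -1.19 ± 0.09 in hairpins, -1.21 ± 0.11 in EV_4OHT), as did CEP55, an abscission factor (-1.78 ± 0.23 and -1.81 ± 0.28). KIF20A, a mitotic kinesin, was at -2.20 in hairpins and -4.34 in EV_4OHT, and PLK1, a mitotic kinase, at -1.49 and -3.51. AURKA, the spindle pole kinase, had the smallest difference from EV of the 56 (log2 -0.61 ± 0.07) and ASPM, a spindle protein, the largest (-2.54 ± 0.16). These 6 were named after their values were seen.

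**Figure D3:**
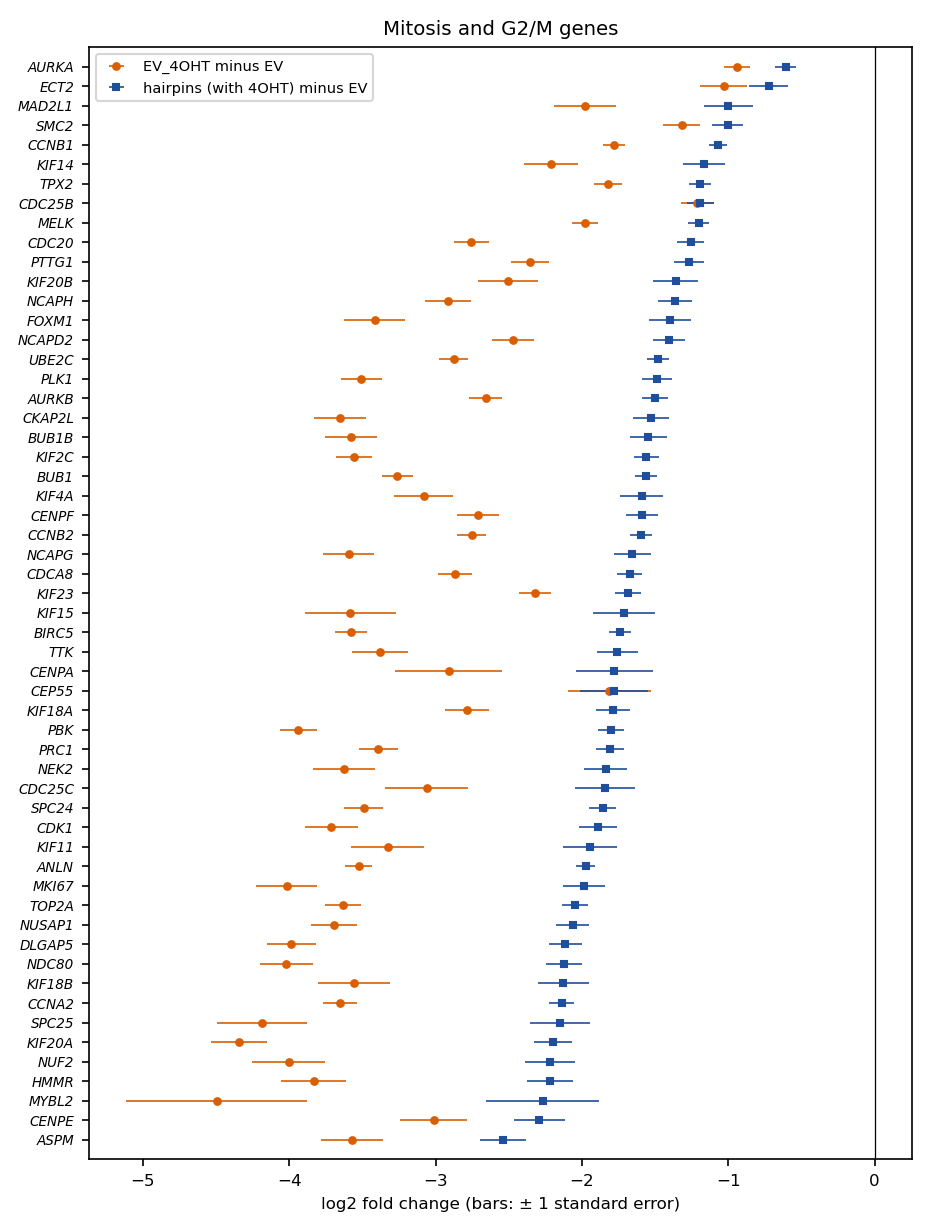
Log2 fold changes (points, with bars of 1 standard error) of the 56 tested mitosis and G2/M genes in hairpins against EV (squares) and EV_4OHT against EV (circles), which share the EV libraries. All squares are below 0 and right of their circles, nearly level for CDC25B and CEP55.

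Promoters of many mitotic genes carry the CHR element, through which the DREAM complex represses them outside G2 and mitosis. The letters TTTGAA were found in 34 of 49 mitosis and G2/M windows (69.4%), beside 9.93% of windows of tested genes and 15.4% of all. In windows of replication and G1/S genes they were found in 2 of 48 (4.17%), and in 3 of 12 windows of IL1 pathway and cytokine genes (25%). The 100 bases before the start of 4 well-known members are shown with the CHR letters in capitals, at chr15:40160969-40161068 (plus strand), chr15:59105046-59105145 (plus strand), chr10:128126424-128126523 (minus strand) and chr16:23678789-23678888 (plus strand) of GRCh38.p14. In hairpins against EV these 4 had log2 fold changes of -1.54 ± 0.12 (BUB1B, a spindle checkpoint kinase), -1.60 ± 0.08 (CCNB2, cyclin B2), -1.98 ± 0.14 (MKI67) and -1.49 ± 0.10 (PLK1).
BUB1B: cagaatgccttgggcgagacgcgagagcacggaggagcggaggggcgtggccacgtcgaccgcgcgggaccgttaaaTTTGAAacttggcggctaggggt
CCNB2: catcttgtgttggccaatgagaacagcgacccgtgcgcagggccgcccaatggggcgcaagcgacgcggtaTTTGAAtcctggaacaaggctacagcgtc
MKI67: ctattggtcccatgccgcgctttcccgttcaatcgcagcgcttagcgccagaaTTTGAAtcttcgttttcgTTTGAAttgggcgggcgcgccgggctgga
PLK1: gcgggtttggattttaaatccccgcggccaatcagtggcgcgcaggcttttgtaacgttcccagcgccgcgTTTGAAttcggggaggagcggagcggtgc

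DNA replication and G1/S genes followed the same order of groups with smaller values. Of 57 tested, 53 were lower and 2 higher than in EV (median log2 -1.10), with a median of -1.75 in EV_4OHT, and 41 were higher than in EV_4OHT. RRM2, the cell-cycle subunit of ribonucleotide reductase, stood at 245, 252, 254 and 253 CPM in EV and at 93.9 to 117 CPM with a median of 110 in the hairpin libraries. All lay below EV and well above EV_4OHT (32 to 36.7 CPM), with differences of log2 -1.21 ± 0.06 and 1.66 ± 0.07. TK1, thymidine kinase, differed from EV (log2 -1.93 ± 0.10) and from EV_4OHT by 1.66 ± 0.12. TYMS, thymidylate synthase, was nearer to EV_4OHT, at 12.9 to 22.4 CPM with a median of 16.6 against 68.1, 72.3, 74.8 and 74.8 CPM in EV and 10.5 to 12.6 CPM in EV_4OHT. E2F7, a repressor of the E2F family, was higher than EV (log2 1.86 ± 0.09) and overlapped EV_4OHT. EZH2, the polycomb methyltransferase and an E2F target, was lower than EV (log2 -1.50 ± 0.10) and higher than EV_4OHT by 0.48 ± 0.11 (adjusted p = 0.0066).

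Of 18 nuclear lamina and HMG genes, 14 were lower and 2 higher than in EV. LMNB1, lamin B1, whose loss is a hallmark of senescence, stood at 36.4, 34.4, 33.6 and 38.6 CPM in EV and at 4.94 to 7.26 CPM with a median of 6.02 in the hairpin libraries. No hairpin library reached EV, and none was as low as EV_4OHT (0.582 to 1.67 CPM). LMNB1 was left at 16.7% of EV (log2 -2.58 ± 0.12, adjusted p = 6.2e-14), 2.26 ± 0.19 above EV_4OHT (adjusted p = 3e-08). HMGB2, a chromatin protein lost early in senescence, stood at 85.2, 112, 120 and 98.7 CPM in EV and at 17.4 to 24.8 CPM with a median of 19.7 in the hairpin libraries. It was also between the groups, with log2 differences of -2.37 ± 0.09 and 1.11 ± 0.11. HMGN2 and HMGB3, further chromatin proteins, were lower than EV (log2 -1.06 ± 0.05) and -1.13 ± 0.09, and the architectural factor HMGA2 was higher by 0.58 ± 0.09. Among 13 tested replication-dependent histone genes, 5 were higher and 6 lower. H4C3 was lower (log2 -2.26 ± 0.11) and H4C8 higher by 1.98 ± 0.10, and since these genes encode the same protein from similar sequences, and their RNAs mostly lack poly(A) tails, the values are uncertain.

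Most matrix and contractile genes were lower than in EV. Of 35 matrix genes, 25 were lower and 6 higher than in EV (median -0.77, -0.68 in EV_4OHT). COL1A1, the main chain of collagen I, stood at 4040, 3670, 3280 and 4100 CPM in EV and at 1200 to 1680 CPM with a median of 1450 in the hairpin libraries. All were below EV, and they overlapped EV_4OHT (1110 to 1220 CPM). COL1A1 was left at 37.6% of EV (log2 -1.41 ± 0.08, adjusted p = 4.8e-13). DCN, decorin, a collagen-binding proteoglycan, stood at 913, 975, 1040 and 1050 CPM in EV and at 124 to 145 CPM with a median of 133 in the hairpin libraries. It was left at 13.4% of EV, overlapping EV_4OHT (114 to 134 CPM). COL1A2 (log2 -1.75 ± 0.06), COL3A1 (-1.68 ± 0.07) and LOX, the collagen cross-linking oxidase (-1.60 ± 0.06), were lower too. POSTN, periostin, was the member with the largest increase (log2 1.77 ± 0.13) and was also higher than EV_4OHT (0.66 ± 0.12, adjusted p = 0.00047), as was TNC, tenascin C (1.12 ± 0.08 and 0.47 ± 0.08); both were named after their values were seen. LTBP1, which stores latent TGF-beta in the matrix, had a difference from EV of log2 0.00 ± 0.07.

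Of 17 contractile genes, 15 were lower and 1 was higher than in EV, with a median of -0.88 (-0.94 in EV_4OHT), and 3 were lower than in EV_4OHT. TAGLN, transgelin, an actin-binding protein, stood at 626, 574, 537 and 642 CPM in EV and at 69.6 to 91.7 CPM with a median of 85.6 in the hairpin libraries. Every hairpin library was below EV and also below EV_4OHT (95.1 to 105 CPM). TAGLN was left at 14.2% of EV (log2 -2.82 ± 0.06, adjusted p = 7.4e-20) and differed from EV_4OHT (-0.26 ± 0.06, adjusted p = 0.0092). ACTA2, smooth muscle alpha actin, the marker of myofibroblasts, stood at 271, 248, 226 and 274 CPM in EV and at 45.5 to 59.4 CPM with a median of 56.6 in the hairpin libraries. It overlapped EV_4OHT and was at 21.8% of EV. CNN1, calponin, was lower (log2 -2.88 ± 0.09), as was ACTG2 (-2.19 ± 0.07), with MYLK, myosin light chain kinase, lower as well (-1.79 ± 0.06). The 5 smooth muscle markers summed to 827 to 966 CPM in EV and 287 to 480 CPM in hairpin libraries and 396 to 432 CPM in EV_4OHT, with MYH11 and DES under 1 CPM on average. SMTN, smoothelin, went against the other markers, at 206, 153, 143 and 149 CPM in EV and 180 to 297 CPM with a median of 254 in hairpin libraries (log2 0.63 ± 0.10), and made up most of the sum in them. The share of a change in cell types in these differences was not tested.

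Genes of TGF-beta, BMP and ID factors were called 5 higher and 9 lower of 22, beside 27.2% and 27.9% of all tested genes. ID2, a dominant-negative helix-loop-helix factor, stood at 173, 194, 178 and 155 CPM in EV and at 18.1 to 42.9 CPM with a median of 32.7 in the hairpin libraries. All lay below EV, and ID2 differed by -2.56 ± 0.09 in log2 from EV and -0.50 ± 0.10 from EV_4OHT (adjusted p = 0.0014), or adjusted p = 0.13 with the hairpin libraries as 1 group. ID1 was lower than EV (log2 -0.88 ± 0.11) where EV_4OHT differed by -0.03 ± 0.13 (adjusted p = 0.87), and the direct difference of hairpins and EV_4OHT was -0.85 ± 0.11 (adjusted p = 9.6e-06). FST, follistatin, which binds activin, was lower (log2 -1.97 ± 0.07). Among 10 Notch genes, 4 were higher and 3 lower, and 2 of the higher ones (HES1 and HEY1) passed the filter only through libraries with 4OHT. The Notch target HEY1 was higher by 3.10 ± 0.22, and NOTCH2 was lower than EV (-0.32 ± 0.07) and lower than EV_4OHT (-0.37 ± 0.07). Of 19 lung fibroblast and HOX factors, 6 were higher and 7 lower, near the shares of all tested genes. PRRX1, a mesenchymal homeobox factor, was above EV (0.85 ± 0.09) and above EV_4OHT (0.54 ± 0.09, adjusted p = 0.00014) in all 8 libraries.

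Type I interferon response genes were low: 16 of 30 were lower than in EV and 3 higher (median -0.44), beside 19 lower and 0 higher in EV_4OHT (median -0.62). Against EV_4OHT, 8 were higher (5 without EV_4OHT replicate 53 or replicate 54) and 0 lower. The count above EV was 5 without EV replicate 51. Of the 26 genes that reached the filter's minimum in EV, 16 were lower than in EV and 1 was higher. IFIT2, an antiviral protein with tetratricopeptide repeats, stood at 16.7, 12.2, 18.8 and 18.1 CPM in EV and at 1.97 to 5.34 CPM with a median of 3.41 in the hairpin libraries. All were below EV (log2 -2.15 ± 0.19). OAS3, which makes the signal for RNase L, was lower (log2 -1.96 ± 0.18) and so was TRIM22, an antiviral ubiquitin ligase (-0.96 ± 0.08). USP18, which removes ISG15 from proteins and dampens interferon signalling, went the other way, at 12.2, 16.9, 14.4 and 14.8 CPM in EV, 14.4 to 20 CPM in EV_4OHT and 21.3 to 29.8 CPM with a median of 28 in the hairpin libraries. Its differences were log2 0.90 ± 0.11 from EV and 0.70 ± 0.11 from EV_4OHT (adjusted p = 7.5e-05).

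Lysosomal genes were mostly high, 19 of 31 higher and 3 lower than in EV, with 11 lower than in EV_4OHT (7 without EV_4OHT replicate 55). CTSL, the cysteine protease cathepsin L, stood at 250, 228, 206 and 249 CPM in EV and at 728 to 910 CPM with a median of 863 in the hairpin libraries. They were above EV and below EV_4OHT (955 to 1090 CPM), differing from EV by 1.83 ± 0.08 in log2. CTSB was higher than EV by 1.26 ± 0.06 in log2, CTSK by 1.38 ± 0.06 and ATP6V0D2, a proton pump subunit, by 4.87 ± 0.25. GLB1, the gene of senescence-associated beta-galactosidase, was higher by 0.33 ± 0.07 in log2 (adjusted p = 0.00066). Among 31 integrated stress response genes, 18 were higher and 6 lower. TRIB3, a pseudokinase, was higher by 1.55 ± 0.08 in log2, DDIT3, the factor CHOP, by 1.28 ± 0.07 and DDIT4, an mTORC1 inhibitor, by 1.20 ± 0.10, while STC2 was lower. ER chaperone and unfolded protein response genes were higher than in EV for 13 of 23 and lower for 2, beside 7 and 5 in EV_4OHT, and 8 were higher than in EV_4OHT. HSPA5, the chaperone BiP, stood at 1070, 929, 907 and 1000 CPM in EV and at 1300 to 1810 CPM with a median of 1580 in the hairpin libraries. It exceeded EV in all libraries (log2 0.70 ± 0.06) and EV_4OHT by 0.31 ± 0.06 (adjusted p = 0.00052).

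Mitochondrially encoded mRNAs were higher than in EV for 9 of 13 and lower for 1 (none without EV replicate 52 or shAHCY_4 replicate 63; median 0.34), beside 13 of 13 higher in EV_4OHT (median 0.69), and 12 were lower than in EV_4OHT. MT-ND4, a complex I subunit, stood at 5270, 4870, 4870 and 5110 CPM in EV and at 6550 to 7430 CPM with a median of 6960 in the hairpin libraries. The hairpin range lay between EV and EV_4OHT (8260 to 8730 CPM), with a log2 difference from EV of 0.48 ± 0.04. MT-ATP6, MT-CYB and MT-ND2 showed the same order, with log2 differences from EV of 0.43 ± 0.05, 0.34 ± 0.04 and 0.45 ± 0.06. MT-ND3, also of complex I, had EV and hairpin values that overlapped at 144, 197, 211 and 229 CPM and at 142 to 296 CPM with a median of 195 and all 8 below EV_4OHT (306 to 356 CPM). Of 77 cytosolic ribosomal protein genes, 5 were higher and 16 lower than in EV (median -0.05), below the 27.2% and 27.9% of all genes. In EV_4OHT 33 were higher and 2 lower, and 46 were lower in hairpins than in EV_4OHT, 20 without EV_4OHT replicate 54 and 24 without EV_4OHT replicate 56. RPSA, a small-subunit protein, was below EV (log2 -0.32 ± 0.06), RPL10 (-0.38 ± 0.06) and RPL12 (-0.37 ± 0.07), and FAU, a ribosomal fusion gene, was above by 0.47 ± 0.07. The ribosomal protein counts against EV moved to 2 higher and 31 lower without EV replicate 49, to 12 and 6 without EV replicate 52, and to 3 and 29 with library totals alone as scaling. Reads of these genes can also match their many pseudogenes. Ribosome biogenesis genes, in contrast, were called higher than in EV for 17 of 22 and lower for 1, beside 15 and 2 in EV_4OHT: POLR1B, the second-largest subunit of RNA polymerase I, was higher by 1.13 ± 0.09 in log2, NOP16, a nucleolar assembly factor, by 1.0 ± 0.07 and WDR12 by 0.93 ± 0.06.

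NRF2 antioxidant genes were lower than in EV_4OHT for 11 of 21 and higher for 0. Against EV, 9 were higher and 3 lower under knockdown, and 16 and 2 in EV_4OHT. HMOX1, heme oxygenase 1, stood at 37.6, 34.5, 32.3 and 38.2 CPM in EV and at 66.3 to 117 CPM with a median of 94.7 in the hairpin libraries. They were above EV and below EV_4OHT (158 to 200 CPM), with log2 differences of 1.37 ± 0.13 and -0.93 ± 0.11 (adjusted p = 4.3e-06 against EV_4OHT). SLC7A11, the cystine transporter, stood at 72.5, 60.4, 57.3 and 45.5 CPM in EV and at 70.4 to 130 CPM with a median of 115 in the hairpin libraries. The lowest hairpin library overlapped EV, and none reached EV_4OHT (164 to 201 CPM). FTL, ferritin light chain, was higher than EV by 0.57 ± 0.06 in log2. AKR1C1 was at 36.5, 33.1, 26.4 and 32.6 CPM in EV, 55.8 to 66.9 CPM in EV_4OHT and 19.8 to 36.6 CPM with a median of 25.8 in hairpin libraries, and it and AKR1C3 (log2 -1.61 ± 0.25) have close paralogs, so their counts are uncertain. Of 27 glycolysis and hypoxia genes, 18 were higher and 5 lower. HK2, hexokinase 2, was higher by 2.04 ± 0.09 in log2, SLC2A3, a glucose transporter, by 1.27 ± 0.06 and BNIP3, a mitophagy receptor, by 0.78 ± 0.06, with CA12, a carbonic anhydrase, lower (-1.11 ± 0.09). Cholesterol synthesis genes were called 7 higher and 6 lower of 23, near the shares of all tested genes.

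Around the reaction of AHCY itself, 10 of 30 methionine cycle and polyamine genes were higher and 10 lower than in EV, AHCY included, near the 27.2% and 27.9% of all tested genes. AHCYL1, an AHCY-like protein that regulates inositol trisphosphate receptors, stood at 40.1, 28, 33.2 and 33.7 CPM in EV and at 66 to 81.8 CPM with a median of 74.1 in the hairpin libraries. All lay above EV and overlapped EV_4OHT (67.9 to 86.9 CPM), with a log2 difference of 1.15 ± 0.10 from EV and 0.03 ± 0.09 from EV_4OHT (adjusted p = 0.9). MAT2A, which makes S-adenosylmethionine, was lower than EV (log2 -0.44 ± 0.07) and lower than EV_4OHT (-0.29 ± 0.07, adjusted p = 0.0044). SAT1, spermidine acetyltransferase, which marks polyamines for export, stood at 96.2, 109, 117 and 111 CPM in EV and at 501 to 622 CPM with a median of 552 in the hairpin libraries. They lay far above EV (log2 2.35 ± 0.07, adjusted p = 2.5e-17) and overlapped EV_4OHT. SMOX, spermine oxidase, was higher by 1.62 ± 0.08 in log2, MTAP, which salvages methionine, by 1.04 ± 0.10 and ADK, which clears adenosine, by 0.28 ± 0.08. Of 29 methyltransferase and polycomb genes, 7 were higher and 7 lower, near the shares of all tested genes. DOT1L, the histone H3 methyltransferase, was higher by 1.10 ± 0.12 in log2 and NSUN2, an RNA methyltransferase, by 0.57 ± 0.08.

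A cluster of epidermal genes was among the largest increases. Late cornified envelope genes encode structural proteins of the skin barrier, and 3 of the 17 listed were tested. These 3 passed the filter only through libraries with 4OHT, so that their number says nothing of the family. LCE1F, a member of the LCE1 group, stood at 0.124, 0.410, 0.106 and 0.861 CPM in EV and at 45.7 to 87 CPM with a median of 60.9 in the hairpin libraries. The range spanned EV_4OHT (68.8 to 74 CPM), and the difference from EV was log2 7.37 ± 0.21, given as a description. LCE2A, of the LCE2 group, stood at 0.311, 0.410, 0.370 and 0.984 CPM in EV and at 12.3 to 33.3 CPM with a median of 22.9 in the hairpin libraries. All lay above EV and below EV_4OHT (37.7 to 41.4 CPM). LCE3D had 0 counts in EV and 71 over the 8 hairpin libraries, at least 15.3-fold higher with the same floor of 3 counts. LCE paralogs are near-identical in places, so reads may be split between them.

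Receptors, junction proteins and lipid enzymes were among the remaining genes of largest change. CHRM2, a muscarinic acetylcholine receptor, stood at 170, 156, 186 and 137 CPM in EV and at 11.5 to 17.8 CPM with a median of 15.2 in the hairpin libraries. It had the largest decrease of the genes with a mean of at least 3 in log2 CPM, to 9.38% of EV (log2 -3.41 ± 0.10, adjusted p = 5.8e-18), and overlapped EV_4OHT. MEST, an imprinted hydrolase, was lower than EV (log2 -2.82 ± 0.07) and above EV_4OHT in all libraries at 32.3 to 53.4 CPM with a median of 37.1 against 26.2 to 31.3 CPM. CLDN11, a tight junction claudin, stood at 877, 1360, 2120 and 1050 CPM in EV and at 175 to 315 CPM with a median of 215 in the hairpin libraries. The hairpin libraries lay below all of them and above EV_4OHT (65.4 to 73.9 CPM), with differences of log2 -2.58 ± 0.17 and 1.71 ± 0.19 (adjusted p = 1.8e-06 against EV_4OHT). PLPP3, a lipid phosphatase, PLCB4, a phospholipase C, LBH, a transcriptional cofactor, and PSG5, a pregnancy glycoprotein with close paralogs, were lower (log2 -2.59 ± 0.10, -2.58 ± 0.11, -2.58 ± 0.09 and -2.55 ± 0.12). On the side of increases, BCL2A1, an anti-apoptotic BCL2 relative, was higher by 5.83 ± 0.26 in log2, TAGLN3, a neuronal transgelin, by 5.43 ± 0.13 and SNCB, beta-synuclein, by 5.17 ± 0.21. TAGLN3 and SNCB lay below EV_4OHT in every hairpin library, with differences of log2 -0.96 ± 0.08 and -0.53 ± 0.12.

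Genes with a large RAS change and the smallest difference between hairpins and EV_4OHT, chosen for that closeness and so given without a test, covered several functions. On the higher side they were PLEK2, a pleckstrin, GK, GFPT2, of hexosamine synthesis, GAL, the neuropeptide galanin, ADTRP and CNIH3, with log2 fold changes against EV from 2.08 (GK) to 4.07 (GAL). GK, glycerol kinase, stood at 61.2, 55.9, 62.7 and 54.2 CPM in EV and at 232 to 261 CPM with a median of 250 in the hairpin libraries. The EV_4OHT range was 241 to 256 CPM. On the lower side they were GAS6, a ligand of TAM receptors, ITGBL1, CHRM2, LBH, ATP8B1, a phospholipid flippase, and ACTA2, from -3.41 (CHRM2) to -2.20 (ACTA2). GAS6 stood at 917, 837, 783 and 950 CPM in EV, 107 to 189 CPM with a median of 162 in hairpin libraries and 155 to 165 CPM in EV_4OHT.

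Genes changed in EV_4OHT whose hairpin values were closest to EV were also chosen for that closeness and given without a test. No minimum size of the RAS change was set for them, which favours genes with small changes. Their small RAS changes therefore say nothing of which changes return. Higher in EV_4OHT were MAP2K2, the ERK kinase MEK2, TXNL4A, a spliceosome protein, MT-ND3, AFF1, VAT1 and MTPN, with log2 differences from EV of 0.29 to 0.76 in EV_4OHT. Lower in EV_4OHT were COQ3, a methyltransferase of ubiquinone synthesis, LTBP1, FTO, an RNA demethylase, GCAT, FASTKD3 and TRUB1, a pseudouridine synthase, from -0.47 to -0.23. Several of these calls in EV_4OHT against EV were lost under alternatives. TXNL4A was lost with the GC trend removed, upper-quartile factors, library totals alone or without EV replicate 49 or 50 or EV_4OHT replicate 53, 54 or 56, and MAP2K2 with library totals alone or without EV replicate 49 or EV_4OHT replicate 54 or 55. FTO was lost with no low-count filter or without EV replicate 49 or 52 or EV_4OHT replicate 53 or 56, and FASTKD3 with the GC trend removed or without EV replicate 51 or EV_4OHT replicate 54. GCAT was lost without EV_4OHT replicate 56, TRUB1 with the GC trend removed, and AFF1 and VAT1 with library totals alone. COQ3 stood at 20.3, 23.8, 24.9 and 24.3 CPM in EV, 19.9 to 29.6 CPM with a median of 23.1 in the hairpin libraries and 14.4 to 18.5 CPM in EV_4OHT, so that hairpin and EV ranges overlapped and EV_4OHT lay below.

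A smaller set lay outside both EV groups: not called in EV_4OHT against EV, and with all 8 hairpin libraries beyond EV and beyond EV_4OHT on the same side. A call in hairpins against EV and in hairpins against EV_4OHT was also required. These genes were chosen on their differences, which are given as a description. The call against EV_4OHT was lost for CASP8 with no low-count filter or without EV_4OHT replicate 56. It was also lost for JAM2 without EV_4OHT replicate 56, and for SDHAF3 without EV_4OHT replicate 54, 55 or 56. Membership depended on the processing for FAP, which was called in EV_4OHT against EV with DESeq2 (adjusted p = 0.045), RLE factors, limma-voom, the GC trend removed or without EV replicate 51 or EV_4OHT replicate 53, for SDHAF3 with the GC trend removed or without shAHCY_2 replicate 59 and EV replicate 51, and for KRTAP2-3 with library totals alone. CDK2, the S phase cyclin-dependent kinase, stood at 68.9, 66.4, 61.3 and 60 CPM in EV and at 88.8 to 115 CPM with a median of 102 in the hairpin libraries. EV_4OHT held 65.6 to 72.8 CPM. FAP, a fibroblast surface protease, CASP8, an initiator caspase, SDHAF3, an assembly factor of complex II, and USP18 were others on the higher side, with log2 differences from EV of 0.57 ± 0.08, 0.49 ± 0.10, 0.75 ± 0.13 and 0.90 ± 0.11. PLPP2, a lipid phosphate phosphatase, stood at 14.9, 16.9, 12.6 and 14.6 CPM in EV and at 4.64 to 8.79 CPM with a median of 7 in the hairpin libraries. EV_4OHT held 11.8 to 15.6 CPM. CYP1B1, a cytochrome P450 induced by the aryl hydrocarbon receptor, was at 25.3, 29, 28.9 and 23.7 CPM in EV, 19.9 to 29 CPM in EV_4OHT and 7.77 to 19.1 CPM with a median of 13 in the hairpin libraries. JAM2, a junction adhesion molecule, KRTAP2-3, a keratin-associated protein with close paralogs, MYPN, a sarcomere protein, and IFI27L1 had log2 differences from EV of -0.80 ± 0.14, -0.76 ± 0.08, -0.74 ± 0.13 and -0.72 ± 0.10.

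**Figure D4:**
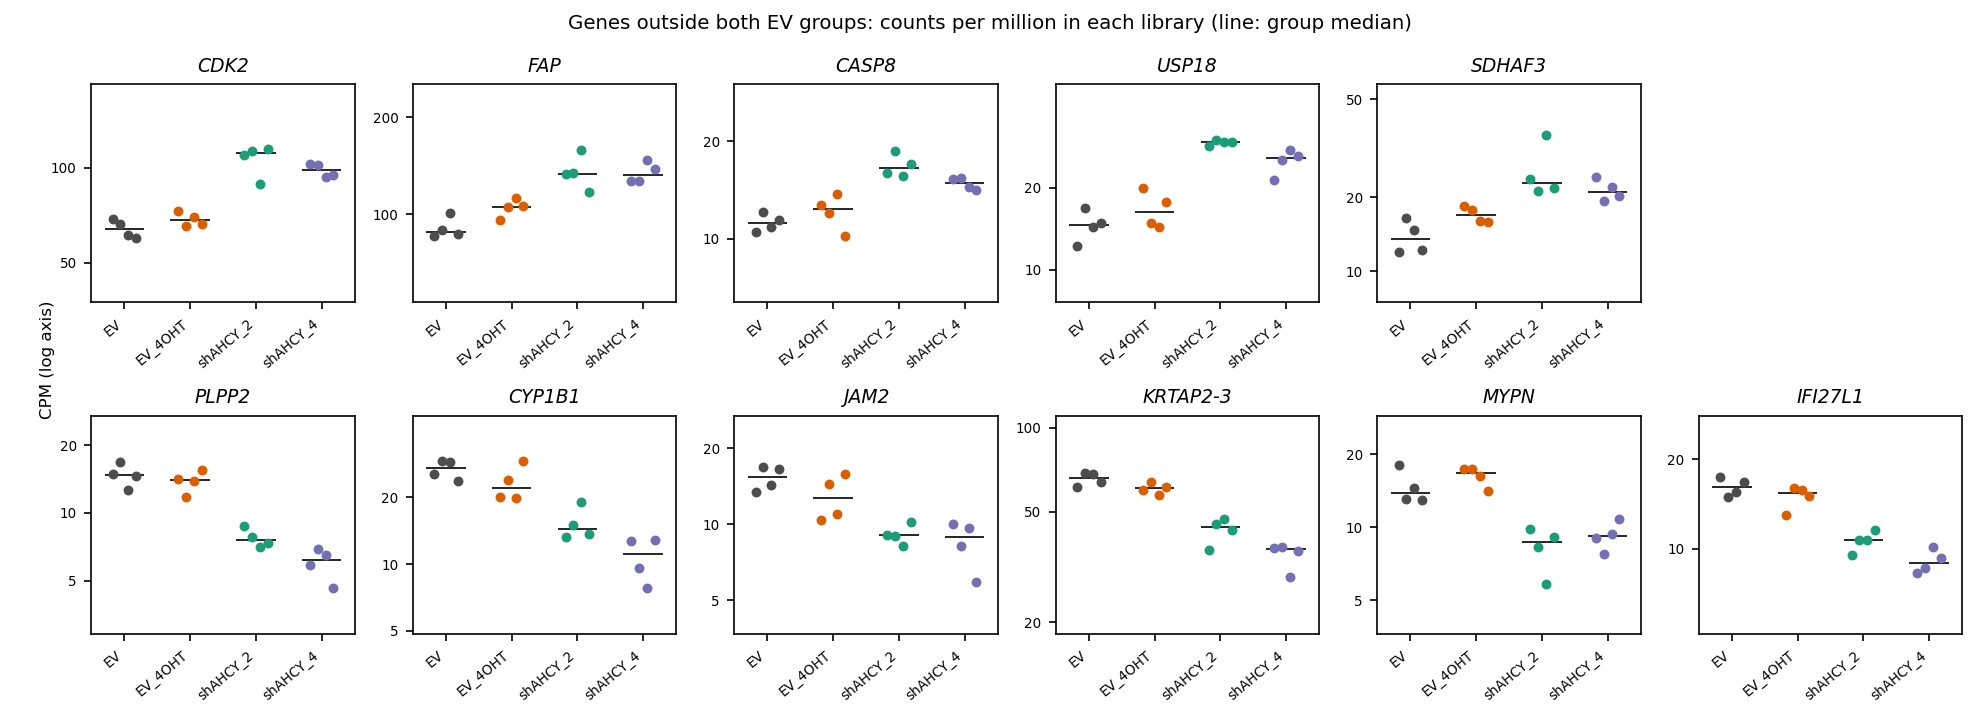
CPM on a log axis in each of the 16 libraries for 11 genes chosen as outside both EV groups, with a line at each group's median. As the choice of genes requires, in the upper row all 8 hairpin libraries lie above the 8 EV and EV_4OHT libraries, and in the lower row all lie below them.

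The hairpins differed from each other in 14 of the genes named here, by the direct test between them. ID1 was 0.93 ± 0.13 in log2 higher with shAHCY_2 than with shAHCY_4 (adjusted p = 0.0005), and so were ID2 (0.86 ± 0.12), TAGLN3 (0.83 ± 0.09) and LCE2A (0.97 ± 0.13). CTSK was lower with shAHCY_2 (log2 -0.55 ± 0.07, adjusted p = 0.00012), as were CNN1 (-0.72 ± 0.13), MEST (-0.47 ± 0.09) and MMP10 (-0.54 ± 0.11). These 8 calls held without each hairpin library in turn, though those of CNN1, MEST and MMP10 were lost with the hairpin groups alone in the fit. The other 6 calls were lost without single libraries. GAL (log2 0.58 ± 0.14) was not called without replicates 58, 59, 60, 61, 62 or 64, and LCE1F (0.59 ± 0.13) without replicates 58, 60, 62, 63 or 64. IL1B (log2 -0.51 ± 0.11) was called only with all libraries or without replicate 59, and HSPA5 (-0.26 ± 0.06) only with all or without replicate 57. ACTG2 (log2 -0.35 ± 0.08) was not called without replicates 59, 62 or 63, and GREM1 (-0.29 ± 0.07) without replicates 57, 58, 60, 61, 62 or 64. Both hairpins had the same direction against EV for all 14. AHCY itself differed between them by 0.34 ± 0.14 in log2 (adjusted p = 0.22), or by 0.49 (adjusted p = 0.034) without shAHCY_2 replicate 59.

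**Figure D5:**
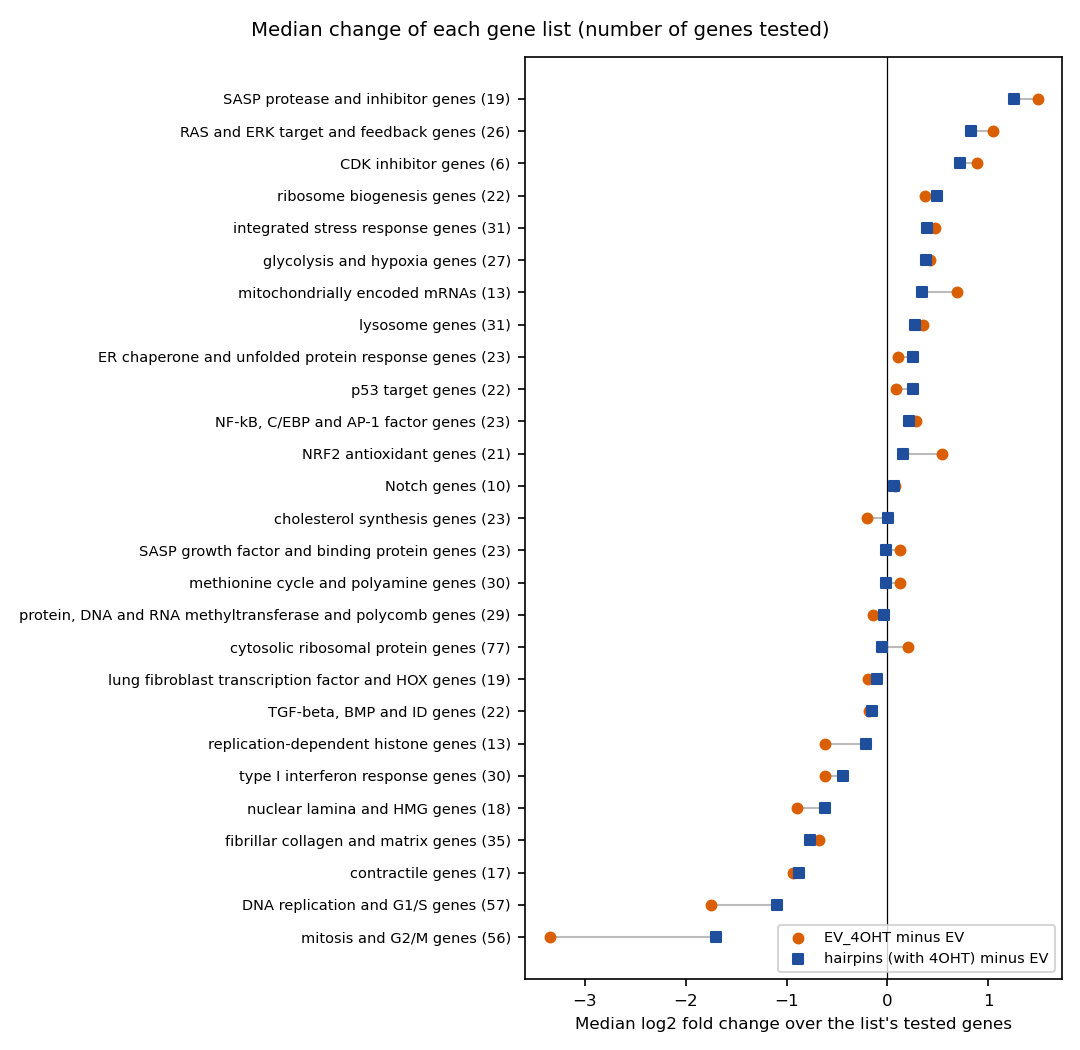
Median log2 fold change of each gene list with at least 6 tested genes, most of which reached the low-count minimum in EV, in hairpins against EV (squares) and in EV_4OHT against EV (circles), which share the EV libraries, ordered by the hairpin value and with the number of tested genes in brackets. The mitosis and G2/M list has the widest gap (-1.70 and -3.35), DNA replication and G1/S genes come next (-1.10 and -1.75), and matrix and contractile lists nearly coincide.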

How the data were processed

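The 16 libraries, 4 in each of 4 groups, were assigned from their labels; all came from IMR90 ER:RAS cells. The authors deposited raw read counts per gene for all 16 libraries, unnormalised, in a table of 62069 genes, of which 39007 had a symbol (rows without one held 0.6352% of counts). The submitters' processing notes name CASAVA 1.8.2, TopHat2 2.0.11 and featureCounts 1.18.0 and the build hg19 (GRCh37). Annotation release and strand setting: not given in the sources used here. Per the labels' protocols the libraries were of the Smart-Seq2 and Nextera XT kind, which do not mark strand, so reads of overlapping and antisense genes cannot be told apart.

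Genes were filtered by edgeR's filterByExpr within groups, leaving 13526. A gene that reached the minimum only in libraries with 4OHT could pass. Of genes called higher than in EV, this held for 1 each in the RAS target, NF-kB, protease and lysosome lists. It also held for 2 in the glycolysis and hypoxia list. Counts were scaled by TMM and fitted with a mean per group over all 16 libraries, sharing 1 estimate of the spread, with edgeR 4.0.16 (quasi-likelihood test, two-sided, R 4.3.3). Hairpins against EV is the mean of the 2 hairpin groups minus EV. The ± values beside log2 fold changes are standard errors, and p-values were adjusted by Benjamini-Hochberg over all 13526 genes. The depth of 8236199 to 18235787 counts per library limits genes at a few CPM, and the floor of 3 counts covers counting error only.

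Members and gene lists were chosen with earlier results of these data known. Of 824 list entries in 30 lists, 811 matched a row of the table and 753 were tested. Named genes are AHCY, a set of textbook genes, the 12 largest increases and 12 largest decreases with a mean of at least 3 in log2 CPM and no overlap of ranges, up to 4 members per list with the smallest adjusted p, and up to 6 per direction that lay outside both EV groups, returned towards EV or stayed at EV_4OHT. ADK, AKR1C1, BUB1B, CCNB2, CEBPB, EREG, GLB1, HMGA2, ID1, LMOD1, MAT2A, MTAP, SMTN and the IGF binding proteins fall outside that rule and were named after their values were seen. Of the genes this rule selects, 1 is not reported here. Alternatives were other scaling factors and filters, GC content, DESeq2 1.42.0, limma 3.58.1, a fold threshold, the groups compared alone, the hairpins as 1 group and each library left out, and, chosen after seeing the data, shAHCY_2 replicate 59 and EV replicate 51 left out together.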

Additional observations from a re-analysis of the deposited data

Results flagged for a closer look

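Single libraries stood apart from the other 3 of their group for 34 of 540 gene and group pairs tested over the named genes and EV, shAHCY_2 and shAHCY_4 (6.3%), by Dixon's gap criterion, where chance alone flags about 1 in 20. shAHCY_2 replicate 59 was the highest for CLDN11 at 315 CPM (others 175 to 181), EREG at 194 CPM (others 156 to 162), FASTKD3 at 21.8 CPM (others 14.9 to 16) and SDHAF3 at 35.9 CPM (others 21.3 to 23.7). It was also the highest for TOP2A at 61.2 CPM (others 44.8 to 47.3). shAHCY_2 replicate 59 was the lowest for ANGPTL4 at 218 CPM (others 289 to 298), CDC25B at 36.1 CPM (others 45.5 to 46.4), CDK2 at 88.8 CPM (others 110 to 115) and IGFBP3 at 26.4 CPM (others 33.7 to 34.7). It was also the lowest for MT-ND4 at 6550 CPM (others 6760 to 6780) and TAGLN at 69.6 CPM (others 81.7 to 83.7). This is the library whose deviations followed GC content most closely, and the bearing of that on these values was not tested. shAHCY_4 replicate 61 was the highest for FOSL2 at 21.7 CPM (others 20 to 20.1), MMP10 at 49.2 CPM (others 37 to 38.6), MT-ATP6 at 1380 CPM (others 1260 to 1280) and RPL12 at 133 CPM (others 121 to 121). shAHCY_4 replicate 61 was the lowest for FAU at 266 CPM (others 285 to 286). EV replicate 49 was the highest for KIF20A at 82.1 CPM (others 69.8 to 71.6), NSUN2 at 114 CPM (others 91.7 to 94.8) and SMTN at 206 CPM (others 143 to 153). EV replicate 49 was the lowest for HMGN2 at 521 CPM (others 589 to 600) and IGFBP2 at 2.18 CPM (others 3.55 to 3.81). EV replicate 52 was the highest for CCNB2 at 95.4 CPM (others 83.2 to 84.8), DDIT4 at 24.4 CPM (others 16.9 to 17.2), FTL at 11500 CPM (others 9960 to 10200) and LCE2A at 0.984 CPM (others 0.311 to 0.41). shAHCY_4 replicate 63 was the highest for AHCY at 18 CPM (others 13.4 to 14) and CHRM2 at 15.9 CPM (others 14.4 to 14.6). shAHCY_4 replicate 63 was the lowest for CA12 at 27.2 CPM (others 33 to 34) and KRTAP2-3 at 29.1 CPM (others 36 to 37.3). EV replicate 51 was the lowest for IGFBP7 at 21.9 CPM (others 28.1 to 28.5) and PLPP3 at 119 CPM (others 138 to 138). shAHCY_2 replicate 58 was the highest for POLR1B at 69.9 CPM (others 60.3 to 61.7). shAHCY_4 replicate 62 was the lowest for HMGN2 at 249 CPM (others 263 to 263). shAHCY_4 replicate 64 was the highest for IGFBP7 at 19.1 CPM (others 13.5 to 13.6).

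For 14 of the 180 named genes the change against EV differed between the hairpins, by the direct edgeR test of shAHCY_2 against shAHCY_4 with Benjamini-Hochberg adjustment over all genes. With the value higher for shAHCY_2, in log2 units, LCE2A differed by 0.97 (5.85 with shAHCY_2 and 4.88 with shAHCY_4, adjusted p = 0.00044) and ID1 differed by 0.93 (-0.41 with shAHCY_2 and -1.34 with shAHCY_4, adjusted p = 0.0005). ID2 differed by 0.86 (-2.13 with shAHCY_2 and -2.99 with shAHCY_4, adjusted p = 0.00044) and TAGLN3 differed by 0.83 (5.84 with shAHCY_2 and 5.01 with shAHCY_4, adjusted p = 3.6e-05). LCE1F differed by 0.59 (7.67 with shAHCY_2 and 7.08 with shAHCY_4, adjusted p = 0.023) and GAL differed by 0.58 (4.36 with shAHCY_2 and 3.78 with shAHCY_4, adjusted p = 0.041). With the value lower for shAHCY_2, in log2 units, CNN1 differed by -0.72 (-3.24 with shAHCY_2 and -2.52 with shAHCY_4, adjusted p = 0.0057) and CTSK differed by -0.55 (1.11 with shAHCY_2 and 1.66 with shAHCY_4, adjusted p = 0.00012). MMP10 differed by -0.54 (7.07 with shAHCY_2 and 7.62 with shAHCY_4, adjusted p = 0.012) and IL1B differed by -0.51 (8.17 with shAHCY_2 and 8.68 with shAHCY_4, adjusted p = 0.025). MEST differed by -0.47 (-3.06 with shAHCY_2 and -2.59 with shAHCY_4, adjusted p = 0.0065) and ACTG2 differed by -0.35 (-2.37 with shAHCY_2 and -2.01 with shAHCY_4, adjusted p = 0.029). GREM1 differed by -0.29 (-1.59 with shAHCY_2 and -1.30 with shAHCY_4, adjusted p = 0.043) and HSPA5 differed by -0.26 (0.57 with shAHCY_2 and 0.83 with shAHCY_4, adjusted p = 0.049). In each case both hairpins had the same sign against EV. The calls lost without single libraries are given with these genes in the results.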

How the results depend on the processing

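No call of a named gene changed direction under any alternative run, while the balance of the ribosomal protein counts turned as given in the report. Higher calls made up 50.8% of calls in hairpins against EV_4OHT and 56.5% in shAHCY_2 against shAHCY_4, and 48.2% and 45.2% at the lowest with 1 library left out. Over the 180 named genes no call in hairpins against EV changed, except with the fold threshold, under which 57 calls were lost, and for AKR1C1 (main adjusted p = 0.044), whose adjusted p was 0.053 to 0.11 under 12 alternatives. The counts of genes changed most with a test against a fold of 2: 490 higher and 585 lower in hairpins against EV, 462 and 513 in shAHCY_2 against EV, 464 and 526 in shAHCY_4 against EV, 570 and 724 in EV_4OHT against EV, 49 and 4 in hairpins against EV_4OHT, and 0 and 0 in shAHCY_2 against shAHCY_4 by edgeR, where 2425 genes had an unadjusted p under 0.05 without that threshold and DESeq2 called 243 and 259. Hairpins against EV kept its counts within 1.5 times under the other alternatives. In hairpins against EV_4OHT the lower count was 1404 with the GC trend removed, and the higher count was 1387 without shAHCY_2 replicate 59 and EV replicate 51. The contrast of the hairpins with each other had 259 higher and 329 lower with the GC trend removed, 430 and 123 with no low-count filter and 47 and 31 with those groups alone, and 136 lower without shAHCY_2 replicate 59 and EV replicate 51. The causes were not tested. With each library left out in turn, hairpins against EV had 3252 to 3850 higher and 3559 to 4097 lower, hairpins against EV_4OHT 592 to 1031 and 589 to 1097, and shAHCY_2 against shAHCY_4 38 to 71 and 28 to 85. The late cornified envelope genes called higher numbered 7 with DESeq2 or with no filter, since more of them were then tested. Library totals alone moved the median of all genes in EV_4OHT against EV to -0.128. No paired analysis was possible because the replicate numbers differ between all groups, and no label ties libraries across groups.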

Other observations

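Genes outside the lists also lay away from EV_4OHT in the hairpin libraries, and the following were chosen after their values were seen, so that they are descriptions with no further test. C15orf48, a mitochondrial complex IV-associated protein induced in inflammation, had a log2 difference from EV of 1.16 ± 0.17 in EV_4OHT and -0.10 ± 0.16 in the hairpin libraries (edgeR adjusted p = 0.61). NEDD4L, a ubiquitin ligase of ion channels, had 1.07 ± 0.15 in EV_4OHT and 0.19 ± 0.13 in the hairpin libraries on the same log2 scale. NFIA, a transcription factor, had -1.21 ± 0.29 and -0.29 ± 0.23 in log2, and METAP1D, a mitochondrial methionine aminopeptidase, -1.13 ± 0.19 and -0.29 ± 0.16. For NFIA the call of hairpins against EV_4OHT was lost with limma-voom (adjusted p = 0.069). It was also lost without EV_4OHT replicate 53, 54, 55 or 56 or shAHCY_4 replicate 64. In each of these 4 the hairpin libraries were not called against EV, which does not show that they equalled EV. APOBEC3B, a cytidine deaminase, was lower than EV in both comparisons, at log2 -1.39 ± 0.10 in the hairpin libraries and -3.65 ± 0.14 in EV_4OHT, and the direct difference of the hairpin libraries from EV_4OHT was 2.26 ± 0.14 (adjusted p = 1.2e-10).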
